A study of Mus musculus with 2 samples.

Results

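The cells described here are microglia of the mouse retina that held no UMI (unique molecular identifier, 1 counted RNA molecule) of Malat1 and still carried UMIs of homeostatic microglial genes. They were chosen by their measured values. A cell was a member if at most 20% of its UMIs were mitochondrially encoded, it had at least 1000 UMIs, at least 5 UMIs over C1qa, C1qb and C1qc, 0 UMIs of Malat1, and at least 2 UMIs over P2ry12, Tmem119, Siglech and Cx3cr1. This selected 158 of 2708 cells, 31 of 1449 in the room air (RA) library and 127 of 1259 in the oxygen-induced retinopathy (OIR) library. The levels of these genes, the depth and the mitochondrial share of the members follow from the choice and are given as a description only.

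The study asked how retinal myeloid cells differ between OIR and RA. OIR pups were kept in high oxygen from postnatal day 7 to day 12 and then in room air until day 17, and RA pups stayed in room air until the same age. All were C57BL/6J, and live CD11b+ F4/80+ cells were sorted from pooled retinas, so that a library is a pool of animals. Each condition had 1 library, and no difference between RA and OIR could be tested: the intervals below are exact 95% intervals of the counts and cover counting error only. The RA library held 1.28e+07 UMIs in all, with a median of 8607 per cell, and the OIR library 9.84e+06 UMIs, with a median of 5254 per cell. The 2 libraries shared 0 cell barcodes.

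Microglia are the resident macrophages of the retina. In their homeostatic state they express P2ry12, a receptor for ADP that guides their processes, Tmem119, a membrane protein that marks microglia, Siglech, a lectin, and Cx3cr1, the receptor of the neuronal chemokine fractalkine. C1qa, C1qb and C1qc form the C1q protein that starts the classical complement cascade. Malat1 is an abundant long noncoding RNA that stays in the nucleus, at the speckles where splicing factors gather, whereas messenger RNAs are exported to the cytoplasm. In hypoxia, as in the avascular retina of OIR, many cells raise the enzymes of glycolysis.

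Members made up 31 of 929 C1q cells in RA, or 3.34% (exact binomial interval 2.28 to 4.70), and 127 of 876 in OIR, or 14.5% (12.2 to 17.0). With other limits, given at the end, the share ranged from 2.04% to 5.17% in RA and from 10.6% to 17.1% in OIR. C1q cells were those past the limits on mitochondrial share, depth and C1q. OIR gave 80.4% of all members. Without the homeostatic limit, Malat1-negative cells were 4.41% of the RA C1q cells and 28.1% of the OIR ones. Members were thus 75.6% (59.7 to 87.6) of the Malat1-negative C1q cells in RA and 51.6% (45.2 to 58.0) in OIR. The remaining 10 RA and 119 OIR cells had 0 or 1 homeostatic UMI.

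The members were shallow cells. Their median depth was 4093 UMIs in RA, from 1353 to 11062, and 3267 UMIs in OIR, from 1064 to 25930.0. The 888 RA and 630 OIR Malat1-positive C1q cells had medians of 10544.5 and 10057.5 UMIs. Within depth classes, members were 4 of 15, 11 of 62, 14 of 146 and 2 of 706 RA C1q cells with 1000 to 2000, 2000 to 4000, 4000 to 8000, and 8000 or more UMIs. The OIR counts in the same classes were 24 of 93, 53 of 146, 39 of 207 and 11 of 430. The shares from the shallowest class upward were 26.7%, 17.7%, 9.59% and 0.283% in RA and 25.8%, 36.3%, 18.8% and 2.56% in OIR. Only in the deepest class did the intervals of RA (0.0343 to 1.02) and OIR (1.28 to 4.53) not overlap.

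Depth and Malat1 were set side by side. Malat1 stood at 18765 CPM (UMIs per 1000000 UMIs) in the RA Malat1-positive cells and 6817 CPM in the OIR ones, so a cell of the members' median depth would hold 76.8 and 22.3 UMIs at that level. Cells with few Malat1 UMIs were rare. Of the RA C1q cells, 41 held 0 UMIs, 18 held 1, 7 held 2 to 5 and 863 held 6 or more. Of the OIR C1q cells, 246 held 0, 16 held 1, 12 held 2 to 5 and 602 held 6 or more. Low counts also occurred outside the microglia. Rods of the same libraries, at a median depth of 2078 and 1987 UMIs, held a median of 1 Malat1 UMI in RA and 0 in OIR, with upper quartiles of 290 and 159.

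**Figure D1:**
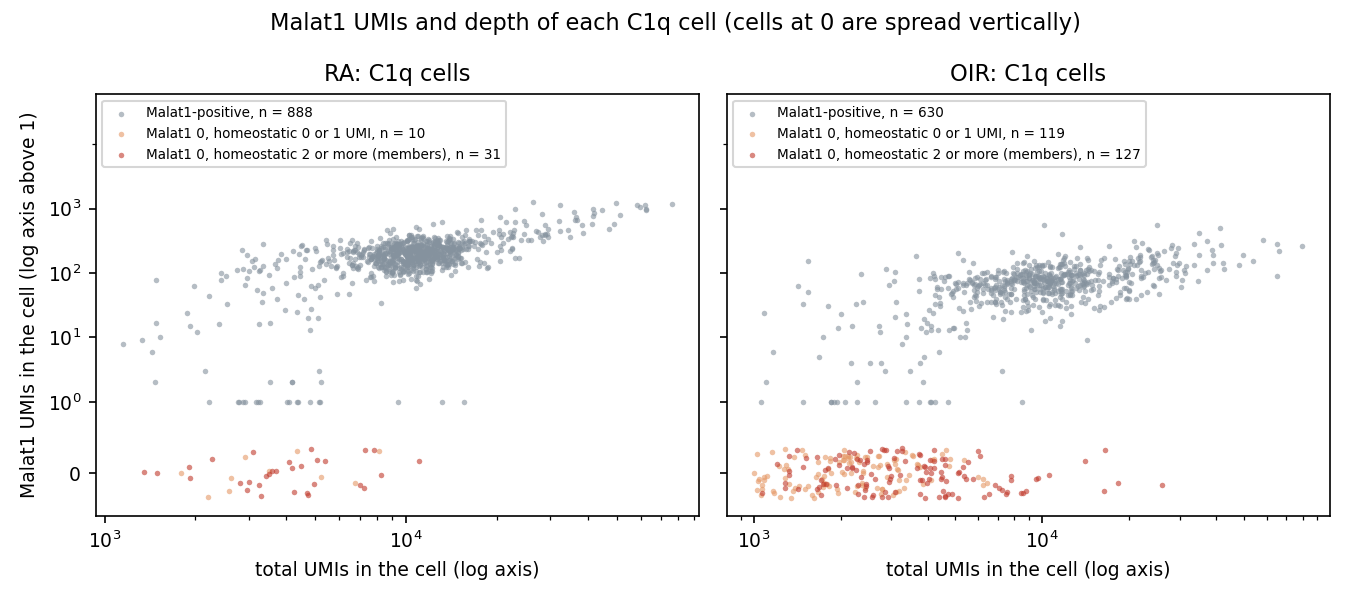
Malat1 UMIs (vertical, log axis above 1) against total UMIs (horizontal, log axis) of each C1q cell in the RA (left) and OIR (right) library, coloured by class, with cells at 0 spread vertically. Members sit at 0 Malat1 UMIs, with 2 of 31 in RA and 11 of 127 in OIR at 8000 or more total UMIs, apart from the cloud of Malat1-positive cells, and few cells lie between 1 and 5 Malat1 UMIs.

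Cells near the limits were counted. The 20 RA and 19 OIR cells with 1 to 5 Malat1 UMIs and at least 2 homeostatic UMIs held 3650 and 7191 CPM over the glycolysis genes and 4584 and 12501 CPM over the immediate early and stress genes. Just inside the homeostatic limit, the 2 RA and 34 OIR members with exactly 2 homeostatic UMIs held 2932 and 22538 CPM over the glycolysis genes. Just outside it, the 6 RA and 53 OIR cells with 1 homeostatic UMI held 4969 and 16593 CPM. In OIR, 4 cells of 800 to under 1000 UMIs, 1 cell of 3 or 4 C1q UMIs and 1 cell of 20 to 25% mitochondrial UMIs met every other limit, and in RA 0 cells did. Just inside those limits lay 1 OIR member of 1064 UMIs, 0 members of 5 or 6 C1q UMIs, and 1 RA and 3 OIR members of over 15% mitochondrial UMIs.

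When every cell was thinned at random to 1000 UMIs, a C1qa UMI was found in 96.8% of RA and 98.4% of OIR members, and in 2.23% and 3.87% of rods, photoreceptors that should lack it (median depth 2078 and 1987 UMIs). Without thinning, C1qa was found in 100% of the members of both libraries and in 7.43% and 7.74% of rods. At least 2 thinned homeostatic UMIs were held by 64.5% of RA and 43.3% of OIR members, by 87.0% and 54.0% of Malat1-positive cells, and by 0 of 269 and 0 of 155 rods. At 3 cells each, a count of 0 allows 1.12% and 1.94% of rods with such UMIs (exact upper limits 1.36% and 2.35%). These genes chose the members, so the homeostatic genes outside the choice are given below as a description. They are not independent of the choice, because every member had to hold C1q and homeostatic UMIs. Members with genes of other macrophages are given further on.

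P2ry12 stood at 935 CPM in RA and 601 CPM in OIR members, against 1279 and 664 CPM in Malat1-positive cells. Cx3cr1 was the homeostatic gene of the choice that differed most, at 518 and 317 CPM against 1941 and 715 CPM. Tmem119 and Siglech were at 255.5 and 277 CPM in RA members, against 482 and 578 CPM. In OIR they were at 268 and 216 CPM, against 306.5 and 272 CPM.

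The other homeostatic genes, which the choice did not use, were near their level in Malat1-positive cells. Over the 27 genes of this list at a mean of at least 100 CPM in RA, the median log2 ratio of members over Malat1-positive cells was -0.22, with 0 genes at least 2-fold higher and 6 at least 2-fold lower. In OIR the median over 26 genes was 0.02, with 0 genes higher and 3 lower by that fold. Over all genes at that level, the median was 0.11 in RA and 0.19 in OIR, so that the scale of these ratios is shifted by that much. Of 1254 genes in RA, 138 (11.0%) were at least 2-fold higher and 281 (22.4%) at least 2-fold lower in members, and of 1404 genes in OIR, 35 (2.49%) were higher and 221 (15.7%) lower. Thinned to 1000 UMIs per cell, 242 of 1291 genes (18.7%) in RA and 82 of 1427 (5.75%) in OIR were at least 2-fold higher and 300 (23.2%) and 224 (15.7%) lower.

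Among these genes, Cst3, a secreted protease inhibitor abundant in microglia, stood at 18735 CPM in RA members against 17536 CPM, and at 12165 CPM in OIR members against 9111 CPM. Csf1r, the receptor that microglia need to survive, stood at 1891 against 2448 CPM and at 1595 against 1748 CPM. Their levels thus differed by less than 2-fold between members and Malat1-positive cells in both libraries. The list genes past 2-fold were all lower in members, and some of them follow. Ptprc, which encodes CD45, had log2 ratios of -1.67 (-2.43 to -1.01) in RA and -1.95 (-2.42 to -1.51) in OIR. Mef2c, a transcription factor of the microglial program, had -1.53 (-2.05 to -1.05) and -1.23 (-1.54 to -0.94). Itgam, which encodes CD11b, and Tgfbr1, a receptor of TGF-beta, were past 2-fold in RA only, which was not tested between the libraries. Tyrobp (0.61 and 0.58), Aif1 (0.82 and 0.55) and Fcer1g (0.55 and 0.20) had ratios above 0 in both libraries. These 3 genes serve microglial signalling and the cytoskeleton.

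Other nuclear RNAs went with Malat1. Neat1, the long noncoding RNA that builds paraspeckles, had 0 UMIs in the 31 RA members and 5 UMIs in the 127 OIR members, against 1497 and 1353 CPM in Malat1-positive cells. With the floor of 3 UMIs for a count of 0, its log2 ratio was -6.09 or lower in RA, and in OIR it was -7.21 (-8.83 to -5.98). Xist, which coats the inactive X chromosome, had 3 UMIs in RA members (ratio -4.51, -6.79 to -2.96) and 0 in OIR members (-4.92 or lower), and Kcnq1ot1 had 0 in both. Neat1 had a UMI in 0 of 31 RA members, which at 3 cells allows 9.68% of members with a UMI (exact upper limit 11.2%), and in 2 of 127 OIR members, against 92.3% and 92.2% of Malat1-positive cells, and at 1000 UMIs in 0% and 0.787% against 61.9% and 59.7%. In rods these shares were 3.72% and 6.45% unthinned and 0% and 1.29% thinned.

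Messenger RNAs of splicing and speckle factors were also low. All 14 list genes at level in RA and 10 of 14 in OIR were at least 2-fold lower in members (against 22.4% and 15.7% of all genes at level). The list medians were -2.38 and -1.63. Ddx5, an RNA helicase and the most abundant gene of the list, stood at 694 against 2228 CPM in RA and at 772 against 1438 CPM in OIR. Ccnl1, a cyclin of splicing kinases, was lowest in RA (-5.67, -8.71 to -3.81, from 2 UMIs in members), and in OIR it had 9 UMIs and a ratio of -4.60 (-5.73 to -3.67).

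Immediate early genes, which cells transcribe within minutes of a stimulus and whose RNA is short lived, were low in members of both libraries. All 22 list genes at level were at least 2-fold lower in each library (against 22.4% of all genes at level in RA and 15.7% in OIR). The list medians were -3.12 in RA and -2.08 in OIR. The summed level of the list was 5096 CPM in RA members against 39274 CPM in Malat1-positive cells, and 8111 against 29746 CPM in OIR. Fos stood at 591 against 3488 CPM in RA and at 1164 against 2934 CPM in OIR. Junb, its partner in AP-1, stood at 569.5 against 5946 CPM and at 1437 against 4867 CPM. Nr4a1, an orphan nuclear receptor, had the lowest ratio in RA (-6.07, -11.37 to -3.59, from 1 UMI), and Gadd45b, a stress response gene, the lowest in OIR (-3.36, -3.85 to -2.92).

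The members differed widely among themselves in these genes. In RA, 3 of 31 members held 64.8% of the UMIs of the list, 4 held none, and the median was 5.24 UMIs per 10000 (quartiles 2.78 and 48.9). In OIR the median was 54.6 per 10000, with quartiles of 8.36 and 158.5, and 76 of 127 members held at least 10 UMIs. Of the Fos UMIs of RA members, 39 of 81 came from 1 cell, and without it Fos stood at 325 CPM. Malat1-positive cells had medians of 382 and 301 per 10000. At 1000 UMIs, Fos was found in 19.4% of RA and 44.9% of OIR members, in 80.5% and 82.9% of Malat1-positive cells and in 7.06% and 9.68% of rods (unthinned 29.0%, 57.5%, 94.5%, 95.4%, 17.5% and 23.2%).

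Cytokine and NF-kappaB genes followed the same direction. Of the 18 list genes at level, 18 in RA and 17 in OIR were at least 2-fold lower (against 22.4% and 15.7% of all genes at level). The list medians were -3.59 and -2.22. Il1b, the precursor of interleukin 1 beta, had 2 UMIs in all RA members (ratio -6.86, -9.91 to -5.01), and in OIR members stood at 368.5 against 2563 CPM. Ccl4, a chemokine, stood at 643 against 8385 CPM in RA and at 1313 against 5250 CPM in OIR. Ccl12, another chemokine, had the ratio nearest to 0 in both libraries (-1.22 in RA and -0.75 in OIR). The exception in OIR was Ccl12, and the lowest there was the neutrophil chemokine gene Cxcl2 (-4.92, -5.47 to -4.41).

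The genes with the lowest ratios of all, outside those of the choice and with at least 3 UMIs in both groups, included members of the immediate early, cytokine and nuclear RNA lists. In RA they were Ifrd1 (-5.30), Gadd45b, Xist, the NF-kappaB inhibitor gene Tnfaip3 (-4.38) and the phosphatase gene Dusp1 (-4.36). In OIR they were Neat1, the NF-kappaB subunit gene Rel (-5.20), the histone demethylase gene Kdm6b (-5.11), Trib1 (-4.93) and Cxcl2. Among 1084 genes at level in both libraries, 171 were at least 2-fold lower in members of both. These were 74.3% of the 230 lower in RA and 86.4% of the 198 lower in OIR. Of all genes at level, 22.4% in RA and 15.7% in OIR were lower by that fold. The 2 comparisons share no cells but split them by the same Malat1 rule, so the overlap is not independent of the choice.

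**Figure D2:**
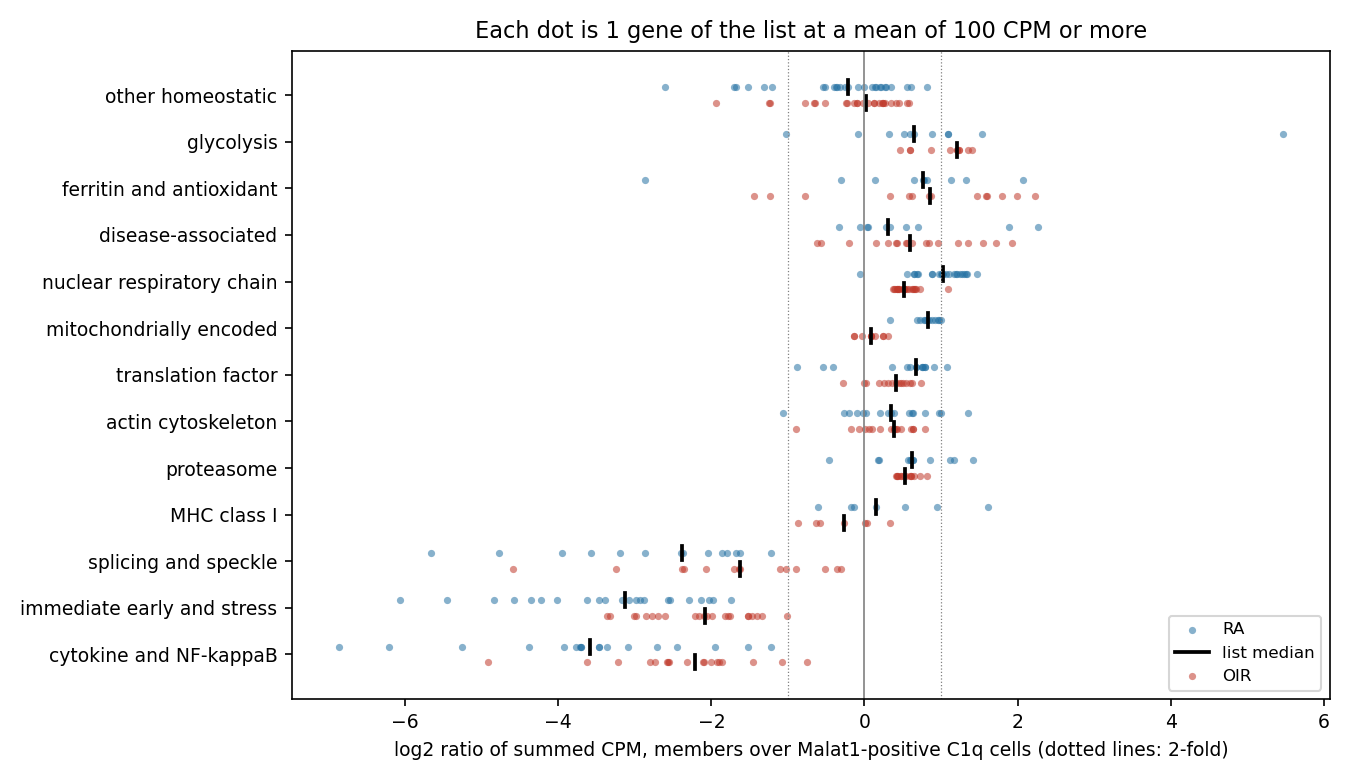
Log2 ratios of members over Malat1-positive C1q cells (horizontal) for the genes of 13 lists (rows), in RA (blue) and OIR (red). Each dot is 1 gene, black bars are list medians and dotted lines mark 2-fold: splicing, immediate early and cytokine genes lie left of 0 in both libraries, and glycolysis genes lie right of 0 in OIR.

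Genes of glycolysis summed to a higher level in members than in Malat1-positive cells of both libraries. Their summed level was 4147 CPM in RA members against 2534 CPM in Malat1-positive cells, and 14176 against 6448 CPM in OIR. Of the 11 list genes at level in each library, 4 in RA and 7 in OIR were at least 2-fold higher (against 11.0% and 2.49% of all genes at level). By that fold 1 in RA and 0 in OIR were lower, and the list medians were 0.65 and 1.20. Without the 1 member of each library that held the most glycolysis UMIs (119 of 568 in RA and 667 of 7732 in OIR, left out after seeing the data), the sums were 3463 and 13358 CPM, 2 and 6 of 11 genes were at least 2-fold higher and the medians were 0.42 and 1.09. The 2 RA genes were then Pgk1 and Aldoc, and Aldoc was also among the 4. Of its 41 UMIs, 39 came from 1 other member, so the RA count of genes past 2-fold says little about the list. At 1000 UMIs per cell the medians were 0.88 and 0.996, and against Malat1-positive cells of at most 5000 UMIs (84 in RA and 91 in OIR) they were 1.11 and 1.02.

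In pathway order, aldolase A (Aldoa) stood at 409 CPM in RA members against 271 CPM, and at 1507 CPM in OIR members against 589 CPM. Gapdh, which oxidises glyceraldehyde phosphate, stood at 1322 against 715 CPM in RA and at 5249 against 2280 CPM in OIR, ratios of 0.89 (0.67 to 1.10) and 1.20 (1.15 to 1.26). Pgk1, the first step that yields ATP, stood at 219 against 75.3 CPM and at 755 against 320 CPM. Pkm, pyruvate kinase, which makes pyruvate, stood at 599 against 280 CPM and at 2130.5 against 803 CPM, ratios of 1.10 (0.76 to 1.41) and 1.41 (1.32 to 1.499). These 4 genes were higher in members of both libraries, with intervals that did not reach 0. Without the RA member of most glycolysis UMIs, the RA ratios were 0.07 (-0.44 to 0.54) for Aldoa, 0.69 (0.44 to 0.92) for Gapdh, 1.24 (0.57 to 1.83) for Pgk1 and 0.65 (0.25 to 1.03) for Pkm, so the Aldoa interval then reached 0. Ldha, which turns pyruvate into lactate, stood at 212 against 224 CPM in RA (-0.08, -0.66 to 0.44) and at 981 against 538 CPM in OIR (0.87, 0.73 to 0.996). Hk2, a hexokinase at the entry of the pathway, was lower in members, at 117 against 239 CPM in RA (-1.03, -1.84 to -0.33) and 62.3 against 101 CPM in OIR (-0.70, -1.24 to -0.20). The highest ratio in RA belonged to Aldoc (5.46), with 39 of its 41 UMIs in 1 member. Without that member Aldoc stood at 15.1 CPM, against 6.79 CPM in Malat1-positive cells.

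Within the OIR members the glycolysis genes made up a median of 99.8 UMIs per 10000, with quartiles of 56.9 and 169 and a range from 19.5 to 724. In RA members the median was 29.3, with quartiles of 20.2 and 45.5. The Malat1-positive cells had medians of 22.8 in RA and 46.8 in OIR. The quartile ranges of RA and OIR members did not overlap, but they describe cells of 1 library each. The difference between the conditions was not tested. A Pkm UMI at 1000 UMIs per cell was found in 35.5% of RA and 70.1% of OIR members against 23.2% and 42.7% of Malat1-positive cells, and without thinning in 64.5% and 89.8% against 85.8% and 92.5%. Rods express glycolysis genes strongly, with a thinned Pkm UMI in 90.7% and 96.8%. The rod list summed to 416 CPM in members against 735 CPM in Malat1-positive cells in RA and to 477 against 945 CPM in OIR, where 3 of the Malat1-positive cells held 50.6% and 45.1% of the rod UMIs of their group. The cell medians of the rod list were 4.11 against 2.67 UMIs per 10000 in RA and 3.77 against 3.42 in OIR, and at 1000 UMIs a rod UMI was found in 32.3% against 26.6% and 29.1% against 33.3% of cells. The part of rod RNA in the glycolysis levels was not tested. Of the hypoxia-inducible genes outside glycolysis, 2 of 15 in RA and 3 of 15 in OIR were at level. Of these, the mitophagy receptor gene Bnip3 (1.13, 0.80 to 1.46) and the cytokine gene Mif (1.40, 1.16 to 1.64) were past 2-fold in OIR, and 0 were in RA. The OIR median of this list was 1.13 and ranged from 0.26 to 1.22 under the processing alternatives.

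**Figure D3:**
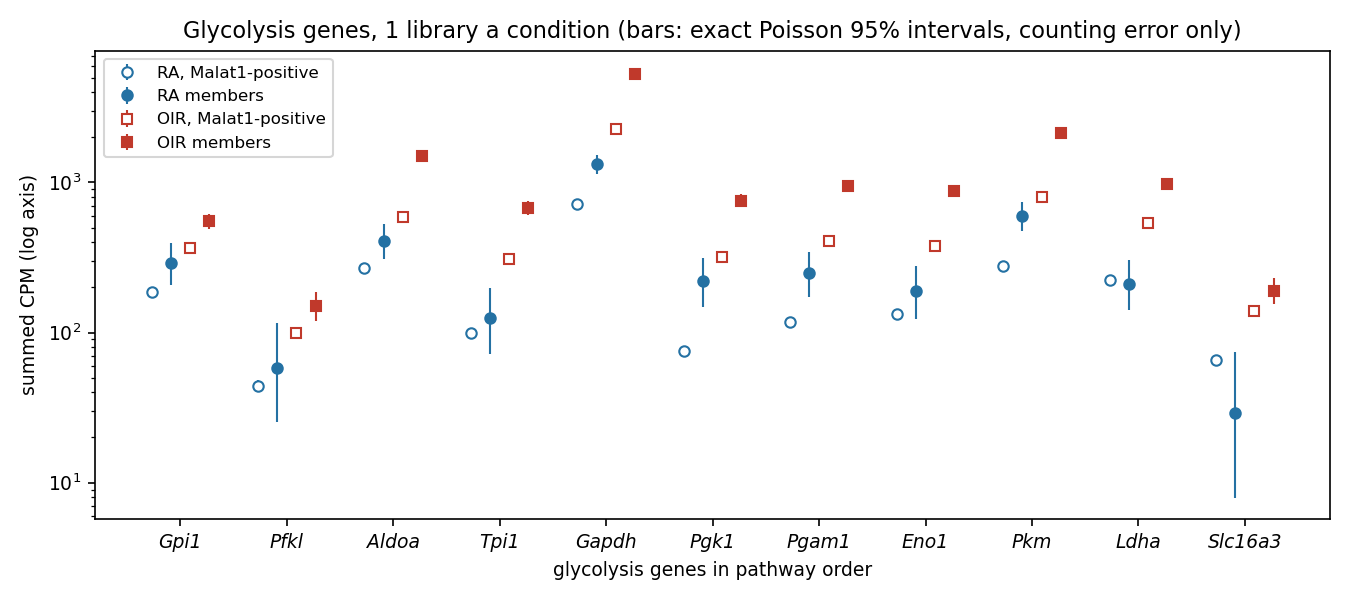
Summed CPM (vertical, log axis) of 11 glycolysis genes in pathway order, the last the lactate exporter gene Slc16a3, in Malat1-positive cells (open) and members (filled) of RA (blue) and OIR (red), with exact Poisson intervals. OIR members are the highest group for every gene shown, and Gapdh is the most abundant, at 5249 CPM.

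**Figure D4:**
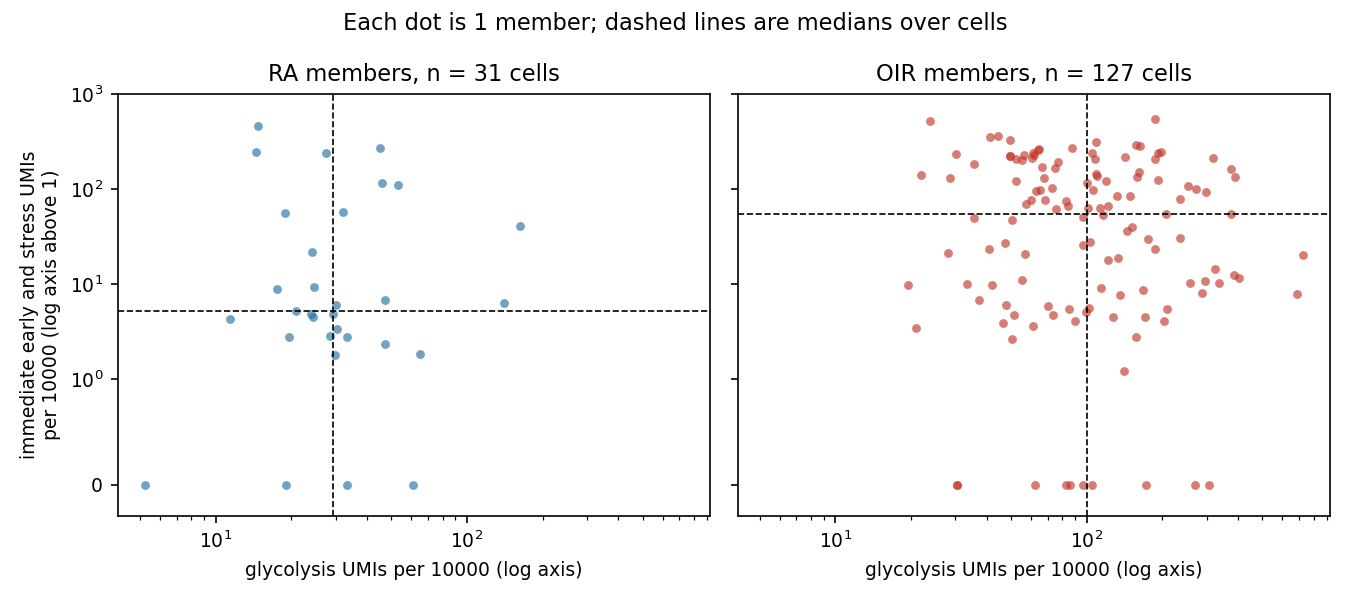
Immediate early and stress UMIs (vertical, log axis above 1) against glycolysis UMIs (horizontal, log axis), both per 10000 UMIs, of each RA (left) and OIR (right) member, with dashed lines at the medians. The RA medians are 29.3 for glycolysis and 5.24 for immediate early genes, the OIR medians 99.8 and 54.6, and the immediate early genes range from 0 to 458 per 10000 in RA members and from 0 to 547 in OIR members.

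Ferritin and antioxidant genes, which bind iron and limit oxidative damage, were also higher in members for a part of the list. Fth1 and Ftl1, the chains of the iron store ferritin, stood at 12084 and 11974 CPM in RA members against 4816 and 7049 CPM. In OIR members they stood at 29396 and 35223 CPM against 10645 and 11567 CPM. In each library these 2 genes were higher in members, though 1 RA member held 604 of 1655 Fth1 UMIs (8106 CPM without it) and 1 held 37.3% of the Ftl1 UMIs (7928 CPM without it), and near-identical copies of ferritin genes and of Gapdh leave the split between loci uncertain. Over the list, 3 of 10 genes in RA and 6 of 14 in OIR were at least 2-fold higher (against 11.0% and 2.49% of all genes at level). The list medians were 0.77 and 0.86. Hmox1, which breaks down haem, stood at 1183 against 1467 CPM in RA (671 CPM without 1 member that held 75 of 162 UMIs) and at 7094 against 2050.4 CPM in OIR (1.79, 1.74 to 1.84), where 3 members held 38.0% of its UMIs. The RA ratio of Hmox1 was -0.31 and ranged from -0.95 to 0.52 under the processing alternatives, so its direction was not stable. Gclm, a subunit of the enzyme that starts glutathione synthesis, had ratios of 2.07 (1.41 to 2.66) and 1.997 (1.79 to 2.20). In RA 14 of the 24 Gclm UMIs came from 1 member, and without it the level was 77.1 CPM against 41.8 CPM. Sqstm1, an autophagy adaptor, was lower, at -2.87 and -1.44.

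The 8 genes at least 2-fold higher in members of both libraries were Capg, Esd, Fth1, Gclm, Pgam1, Pgk1, Pkm and Taldo1. They were 7.77% of the 103 genes higher in RA and 47.1% of the 17 higher in OIR among the 1084 genes compared. Of all genes at level, 11.0% in RA and 2.49% in OIR were higher by that fold, and both comparisons used the same Malat1 rule. When the member that held the most UMIs of each gene was left out, a choice made after seeing the data, 3 of the 8 (Capg, Esd and Pgk1) in RA and 8 of 8 in OIR were still at least 2-fold higher. The RA ratios of the other genes were then 0.75 for Fth1, 0.88 for Gclm, 0.66 for Pgam1, 0.65 for Pkm and 0.99 for Taldo1. Capg, an actin capping protein, stood at 204 against 42.4 CPM in RA and 356 against 139 CPM in OIR. Taldo1, an enzyme of the pentose phosphate pathway, had ratios of 1.33 (0.97 to 1.68) and 1.08 (0.94 to 1.22), and Esd, an esterase, of 1.18 and 1.60. The highest ratios in RA after Aldoc were those of Capg (2.27), Gclm, the lipoprotein lipase gene Lpl (1.88) and the acyl-CoA binding protein gene Dbi (1.70, with 25 of 52 UMIs in 1 member). In OIR they were those of the haemoglobin genes Hbb-bt (8.36), Hbb-bs (7.68), Hba-a1 and Hba-a2 and of the elastase gene Mmp12 (2.88). Of the haemoglobin UMIs of OIR members, 1491 of 1533 came from 1 cell, and of the Mmp12 UMIs 82 of 133.

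Genes that microglia raise around lesions (the disease-associated list) were at least 2-fold higher for 2 of 10 genes in RA and 5 of 18 in OIR. Over all genes at level these shares were 11.0% and 2.49%, so the RA count says little about the list. The list medians were 0.31 and 0.59. Apoe, the most abundant, did not differ by that fold, at 22824 against 22211 CPM in RA and 20566 against 23650 CPM in OIR. Spp1, which encodes osteopontin, stood at 7.30 against 20.9 CPM in RA and 1109 against 338 CPM in OIR, where 27 of 127 members had a UMI and 3 held 75.5% of the UMIs (718 CPM without the highest). Fabp5, a fatty acid binding protein, had a ratio of 1.92 (1.72 to 2.12) in OIR and Lgals3, galectin 3, of 1.23 (1.08 to 1.36). Igf1, a growth factor, and Lpl, lipoprotein lipase, had ratios of 1.84 and 1.88 in RA and 0.96 and 0.84 in OIR. In RA 1 member held 7 of 17 Igf1 UMIs and 1 held 27 of 47 Lpl UMIs, and without it the levels were 74.7 and 154 CPM, against 34.6 and 93.0 CPM.

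Genes of the nuclear respiratory chain were at least 2-fold higher for 14 of 24 genes in RA (median 1.02) and for 1 of 22 in OIR (0.52). Of all genes at level, 11.0% in RA and 2.49% in OIR were higher by that fold. Mitochondrially encoded genes had a median of 0.83 in RA, with mt-Atp6 at 15457 against 7862 CPM, and of 0.09 in OIR. Under the processing alternatives given at the end, this RA median ranged from 0.08 to 0.91, so it depends on the processing. The mitochondrial share of UMIs had a median of 9.02% in RA members, 4.84% in OIR members, and 4.20% and 4.76% in Malat1-positive cells. Ribosomal protein genes held 24.6% of the UMIs of RA members against 13.1%, and 10.4% of those of OIR members against 7.38%. At 1000 UMIs, members had a median of 496 detected genes in RA and 545 in OIR, against 591 and 604. Translation factors (medians 0.68 and 0.41), the actin cytoskeleton (0.34 and 0.39) and the proteasome (0.62 and 0.53) lay above the median of all genes in both libraries. MHC class I genes had medians of 0.16 and -0.27. These shares moved with the differences above, and their part in them was not tested.

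Of the apoptosis list 4 of 16 genes were at level in each library, with medians of -1.63 and -0.94. Across the processing alternatives these medians ranged from -3.25 to 0.50 in RA and from -1.26 to -0.10 in OIR. Against Malat1-positive cells of at most 5000 UMIs the RA median turned to 0.50, while the summed level of the list was 613 CPM in RA members against 2342 CPM in those cells and 2851 CPM in all Malat1-positive cells. Mcl1, which protects cells from death and has a short-lived RNA, stood at 175 against 1834 CPM in RA and 295 against 1592 CPM in OIR. Cdkn1a, the cell cycle inhibitor p21, had ratios of -4.58 (-7.63 to -2.73) and -1.75 (-2.14 to -1.38), while Bax, which permeabilises mitochondria, had 0.69 in both (-0.01 to 1.31 and 0.43 to 0.94). Of the 18 cell cycle genes, 2 in RA and 9 in OIR were at level, with medians of -0.63 and 0.33. At full depth, 41 of 127 OIR members and 0 of 31 RA members held at least 10 cell cycle UMIs. Of the deeper Malat1-positive cells, 313 of 630 in OIR and 199 of 888 in RA did. With cells thinned to equal depth, at least 2 such UMIs were held by 46.5% of OIR members against 32.9% of Malat1-positive cells. In RA these shares were 6.45% and 13.4%. The proliferation marker Mki67 had 0 UMIs in RA and 20 in OIR members, where it stood at 36.7 against 162 CPM. The 2 interferon genes at level had medians of 0.70 and -1.04.

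Markers of other cells were examined over each whole list. The 10 border macrophage genes, which mark macrophages of vessels and meninges, held 1986 CPM in RA members against 1214 CPM, with Pf4 as the most abundant and 1 gene at 0. In RA 12 of 31 members held a UMI of the list and 8 held at least 10, against 104 of 888 Malat1-positive cells with at least 10, and 4 members held 77.6% of the UMIs. In OIR members they held 484 against 2253 CPM with 0 genes at 0, and 46 of 127 members held a UMI and 6 at least 10, against 143 of 630 Malat1-positive cells with at least 10. Pf4 had 124 UMIs in 8 RA members and 64 in 7 OIR members. Leaving out the members and comparison cells with at least 10 UMIs of border macrophage or erythroid genes moved the share of members to 2.84% in RA and 17.1% in OIR. The medians without them were 0.77 and 1.15 for glycolysis, -3.03 and -2.14 for immediate early and -0.18 and -0.12 for the other homeostatic genes. The 6 erythroid genes were all at 0 in RA members and held 2825 CPM in OIR members against 17.97 CPM in Malat1-positive cells.

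Lists of other retinal cells followed. Mueller glia and astrocyte genes held 664 against 705 CPM in RA and 939 against 886 CPM in OIR, mostly Glul (453 and 512 CPM in members), with 3 and 5 of 10 at 0. The cone list held 321 against 170 CPM in RA and 139 against 99.3 CPM in OIR, in members all from Gngt2, with 7 of 8 genes at 0 in both. Rod genes were led by Gnb1 (234 and 299 CPM), which many cells express, with 2 of 15 at 0 in both. Retinal neuron genes held 43.8 against 29.1 CPM in RA and 23.8 against 21.7 CPM in OIR, with 7 and 6 of 10 at 0. Endothelium and pericyte genes held 51.1 against 26.7 CPM and 12.8 against 22.1 CPM, with 6 of 10 at 0 in both. Lens genes held 110 against 31.5 CPM and 16.5 against 28.97 CPM, with 3 and 8 of 10 at 0. In RA 1 member held 5 of the 6 retinal neuron UMIs and 1 held 10 of the 15 lens UMIs. Without the member of most UMIs of each list, left out after seeing the data, retinal neuron genes held 7.47 CPM in RA and 18.5 CPM in OIR members and Mueller glia and astrocyte genes 803 CPM in OIR members, all then below the Malat1-positive cells, and lens genes held 39.7 CPM in RA members. The most abundant genes of the neuron, endothelium and lens lists in RA and OIR were Snap25 and Uchl1, Pecam1 and Rgs5, and Cryaa and Cryab. Monocyte genes held 7.30 and 67.8 CPM against 130 and 248 CPM (7 and 6 of 8 at 0, led by Ms4a4c and Fn1), neutrophil genes 73.0 and 42.2 CPM against 158 and 149 CPM (5 of 7 at 0 in both, led by Csf3r), and lymphocyte and platelet genes 21.9 and 14.7 CPM against 14.7 and 10.2 CPM (8 of 9 at 0 in both, all Gp9, and 9.19 CPM in OIR without 1 member). The part of other cells' RNA in the differences was not tested.

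Between the libraries, members of OIR held more glycolysis RNA than members of RA. Over 1209 genes at level, 193 (16.0%) were at least 2-fold higher and 157 (13.0%) at least 2-fold lower in OIR members, with a median ratio of 0.31. Of 12 glycolysis genes, 10 were higher by that fold and 1 lower, with a median of 1.90. The one lower was Aldoc. Gapdh had a ratio of 1.99 (1.77 to 2.21) in members, 1.67 (1.63 to 1.71) in Malat1-positive cells and 0.78 (0.72 to 0.84) in rods of the same libraries, and Pkm of 1.83 (1.51 to 2.17), 1.52 (1.46 to 1.58) and 0.62 (0.55 to 0.70). Ldha had 2.21 (1.67 to 2.80), 1.26 (1.19 to 1.34) and 0.42 (0.33 to 0.52). These 3 genes were higher in OIR in all 3 classes of cells, where the median ratio over all genes at level was 0.31 in members, 0.08 in Malat1-positive cells and 0.09 in rods.

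Among genes with at least 3 UMIs in the members of both libraries, and outside those of the choice, the highest OIR over RA ratios in members belonged to Lgals3 (3.94, 2.95 to 5.16), the microtubule regulator gene Stmn1 (3.83, 2.45 to 5.71), the peroxiredoxin gene Prdx6 (3.03, with 128 of 227 OIR UMIs in 1 member), Fabp5 (3.01) and Tubb4b (2.76). In Malat1-positive cells the ratios were 2.90, 2.98, 1.19, 1.92 and 1.40. Some genes with fewer RA UMIs lay higher, such as Spp1 with 1 UMI in RA and 605 in OIR members (7.25, 4.76 to 12.55) and the lysozyme gene Lyz2 with 0 and 462 (5.27 or higher with the floor of 3 UMIs). Ferritin and antioxidant genes were higher for 8 of 12 and disease-associated genes for 9 of 18, with medians of 1.31 and 1.003. Homeostatic genes outside the choice had a median of -0.25, with 0 of 25 higher and 2 lower. Immediate early genes had a median of 0.61 and cytokine genes of 1.03. Across the processing alternatives these ranged from 0.29 to 1.14 and from 0.65 to 1.90.

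With the same limit of 3 UMIs, which leaves out Aldoc (41 UMIs in RA and 2 in OIR members), the lowest ratios were those of the MHC class II gene H2-Aa (-5.49, with its 45 RA UMIs in 3 members), the ribosomal protein gene Rps28 (-3.57), the splicing protein gene Snrpg (-3.23), the myeloid gene Lst1 (-3.16) and mt-Nd3 (-3.10). Rps28, Snrpg and mt-Nd3 were also lower in OIR in Malat1-positive cells (-2.92, -2.32 and -2.16) and in rods (-3.09, -2.28 and -2.18), as were Rps29 (-2.94 in members, -2.40 and -2.12) and Rps21 (-3.08, -2.56 and -2.59). In contrast, the ribosomal protein genes Rpl3 (0.27, 0.66 and 0.64), Rps3 (-0.01, 0.45 and 0.10) and Rplp0 (0.35, 0.74 and 0.45) were not. The nuclear respiratory chain genes had a median of -1.04 in members (14 of 27 at least 2-fold lower), -0.84 in Malat1-positive cells (11 of 24, where 7.41% of 1458 genes were lower) and -1.43 in rods (18 of 28, where 6.59% of 1729 were lower). With 1 library a condition, a library effect and an effect of OIR cannot be told apart for any gene compared between the libraries.

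**Figure D5:**
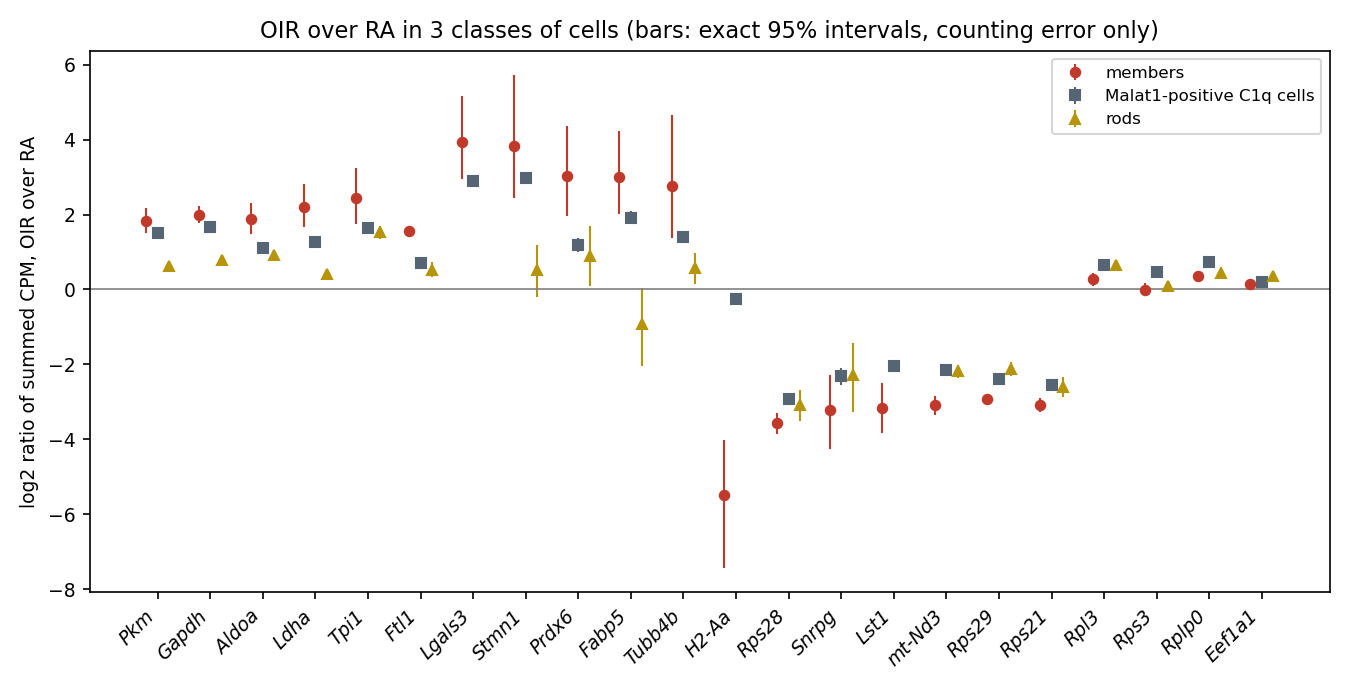
Log2 ratios of OIR over RA (vertical, exact intervals) of glycolysis genes, the genes with the highest and lowest ratios in members, and ribosomal protein genes, in members (red circles), Malat1-positive C1q cells (gray squares) and rods (yellow triangles). Ratios with no finite interval are not drawn. Rps28, Rps29 and Rps21 lie below -2 in all 3 classes and H2-Aa only in members.

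In OIR the members were also set beside the 119 Malat1-negative C1q cells with 0 or 1 homeostatic UMI. These 119 cells were shallower, with a median of 2118 UMIs against 3267 in members. The part of depth in the differences was not tested. Homeostatic genes that the choice did not use were higher in members, with 12 of 24 at least 2-fold higher, 0 lower and a median of 1.03, where 44 of 1328 genes (3.31%) were higher and 35 (2.64%) lower. The 2 classes were separated by homeostatic UMIs, so this difference is not independent of the choice. Glycolysis genes had a median of -0.27, with Slc16a3 as the 1 of 11 genes past 2-fold (1.07), summed levels of 14176 and 16782 CPM, and cell medians of 99.8 and 120.0 per 10000. Ferritin and antioxidant genes had a median of -0.63, with summed levels of 78109 CPM in members and 130243 CPM in the others, and 1 of 14 genes was at least 2-fold lower in members. Border macrophage genes were at least 2-fold lower in members for 6 of 6 genes, with a median of -2.64. Among the genes lowest in members were Clec4n (-3.40), Ms4a7 (-2.87), Pf4 (-2.80) and Mrc1 (-2.76), and outside haemoglobin and the genes of the choice Tnf was the highest (2.44). Neat1 had 5 UMIs in members and 1 UMI in the others, and immediate early genes had a cell median of 54.6 per 10000 in members and 12.5 in the others.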

How the data were processed

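The authors sequenced 1 droplet library a condition, aiming at 2000 cells and 80000 reads per cell, and deposited the UMI count of each of 31053 genes in each cell, made with Cell Ranger 3.1.0 per the file headers. The submitters' processing notes name mm10, Cell Ranger and Seurat 4.0. No authors' cell annotation was used here. The deposited counts were used as they are, with Python 3.11.15, NumPy 2.4.6 and SciPy 1.17.1. For each class of cells the UMIs were added up and scaled to 1000000 (CPM). Ratios have exact conditional binomial intervals and levels exact Poisson intervals of 95%. A count of 0 was set to a floor of 3 UMIs. The functions were tested on simulated data. With 1 library a condition no test across samples was possible.

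Genes at a mean of at least 100 CPM in the 2 groups were compared, and 2-fold was the mark for higher or lower. The members, the 29 gene lists and the rules were chosen with earlier results of these data known. Named genes were the 8 genes of the choice, up to 4 per list (the most abundant and those with the largest ratios either way), and the 5 highest and 5 lowest ratios with at least 3 UMIs in both groups. Further genes were named after their values were seen. Of 429 list genes 425 were in the tables. Rods had at least 20 UMIs over 5 rod genes and under 5 C1q UMIs. Where stated, depth was matched by thinning every cell to 1000 UMIs. The main levels, ratios, list medians and 2-fold counts used the cells at full depth. Doublets were not called, and an alternative leaves out the 2% of cells with the most genes. Reads of gene families with near-identical copies (ferritin, Gapdh, haemoglobin, ribosomal protein genes) may be split between loci. A few list genes that the rule names are not reported here.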

Additional observations from a re-analysis of the deposited data

Results flagged for a closer look

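Among the genes compared in both libraries, 2 were at least 2-fold higher in members of RA and at least 2-fold lower in members of OIR, relative to the Malat1-positive cells of the same library. Igfbp4, which binds insulin-like growth factors, had a log2 ratio of 1.42 in RA (23 UMIs in 12 members) and -1.58 in OIR (42 UMIs in 21 members). Pf4, a chemokine gene of the border macrophage list, had 1.09 in RA and -1.95 in OIR (124 and 64 UMIs, in 8 members of RA and 7 of OIR). Without the member that held the most of its UMIs in each library, left out after seeing the data, Pf4 had 0.65 in RA (34 of 124 UMIs left out), under 2-fold, and -2.36 in OIR, and Igfbp4 had 1.09 and -1.83. With 1 library a condition, the difference between RA and OIR was not tested.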

How the results depend on the processing

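No paired analysis was possible because each condition has 1 library and the labels give no replicate numbers. The 13 main values were recomputed under up to 15 alternatives, 1 of which (without cells of at least 10 border macrophage or erythroid UMIs) was chosen after seeing the data, and 116 of 133 values stayed within their interval or within 1.5 times the count, while 17 moved. Among the other values 991 of 1200 stayed. For a list median, the interval was the counting interval of its middle gene or genes, not of the median itself. The RA share of members was 2.04% with a mitochondrial limit of 10% and 5.17% with at most 1 Malat1 UMI. The OIR share was 10.6% with at least 3 homeostatic UMIs and 17.1% without cells of border macrophage or erythroid genes. The OIR glycolysis median was 0.92 with at least 3 homeostatic UMIs, 0.996 thinned to 1000 UMIs, 1.05 as a mean over cells, 1.01 centred on the median ratio, and 1.02 against comparison cells of at most 5000 UMIs. Against those cells the RA glycolysis median was 1.11, the OIR median of the other homeostatic genes -0.19, and the RA apoptosis median turned from -1.63 to 0.50. Genes at least 2-fold higher in members numbered 242 in RA and 82 in OIR after thinning to 1000 UMIs, and 420.0 and 92 with a level of 20 CPM, where 1498 and 1204 were lower. The immediate early medians ranged from -3.23 to -2.74 in RA and from -2.27 to -1.98 in OIR. Of 1303 ratio values under the alternatives, 32 had a changed sign, 1 of them among the 605 whose main value was 1 or more in size. The RA members hold 136962 UMIs in all, the OIR members 545418, so ratios of genes under 100 CPM rest on few UMIs in RA. Which causes lie behind the moved values was not tested.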

Other observations

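Lyz2, the lysozyme gene of macrophages, stood at 4.40 CPM in RA and 1302 CPM in OIR Malat1-positive cells, and at 0 of 136962 UMIs in RA and 847 CPM in OIR members, where 80 of 127 members held a UMI. In rods it had 0 UMIs in RA and 4 in OIR. Tmsb10, an actin-binding peptide gene, was lower in OIR in members (329 CPM in RA and 95.3 CPM in OIR), in Malat1-positive cells (191 and 44.0 CPM) and in rods (239 and 49.4 CPM).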
